A study of Homo sapiens with 18 samples.

Results

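The cytosolic ribosomal protein genes were taken by name from the deposited gene tables: every symbol of the form RPL or RPS followed by its number, with a final A or X where the name has one, plus RPLP0, RPLP1, RPLP2 and RPSA. This gave 77 of the 26249 genes listed in each library, of which 46 encode proteins of the large subunit and 31 encode proteins of the small subunit. The rule uses names and no measured value. All 77 passed the filter on low values (at least 1 FPKM in at least 3 libraries) in every fit. FAU, which encodes a ribosomal protein fused to a ubiquitin-like protein, and paralogues such as RPL22L1 and RPL39L carry other names and were described apart.

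The libraries were 3' messenger RNA libraries (QuantSeq) from 2 human cell lines labelled multiple myeloma, XG1 and AMO1. Each line was kept for 24 h in the solvent DMSO, in 100 nM YKL-5-124 or in 1000 nM YKL-5-124, a covalent inhibitor of the kinase CDK7, with 3 replicates in each of the 6 groups and 18 libraries in all. The series title counts both lines among resistant lines without naming the agent they resist. No agent was shared by all groups other than the growth medium, RPMI with 10% serum. Nothing in the labels says whether a line's numbered replicates were grown apart, and each p-value therefore reflects no more than how far these samples spread. Each line is 1 established line, and its libraries do not stand for other tumours. The libraries labelled XG1 went against their label: in DMSO 3 of 10 plasma cell markers averaged over 5 FPKM, with a sum of 91.6 to 145 FPKM, against 10 of 10 in AMO1, with a sum of 8363 to 9397 FPKM. Of 12 erythroid markers, 10 averaged over 5 FPKM in XG1 in DMSO, with a sum of 4826 to 5237 FPKM, against 1 in AMO1, with a sum of 109 to 124 FPKM. Every difference between the lines below is a difference between libraries so labelled.

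Ribosomal proteins are made in near equal numbers, since nearly every one goes into each ribosome as a single copy, and surplus copies are degraded. Their genes are among the most strongly transcribed housekeeping genes. Transcription of most of them starts at a cytosine in a run of pyrimidines, and the messenger RNA carries that run at its 5' end (the 5' terminal oligopyrimidine, or TOP, motif), through which mTOR signalling and the RNA-binding protein LARP1 control its translation and stability. CDK7 belongs to the general transcription factor TFIIH, phosphorylates RNA polymerase II at the start of transcription and activates other cyclin-dependent kinases.

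RefSeq (GRCh38.p14) promoter entries were matched for 62 of the 77 genes. Those shown were picked after their values were seen, because the run at the start is what most of these genes share while they differ in how far they moved. In each sequence, given from 15 bases before the annotated start to 14 bases after it, the capitals mark the unbroken stretch of C and T that covers or touches the start. The first 3 genes were reduced less than the typical ribosomal protein gene in at least 1 line at 1000 nM, and the next 3 more.
RPS19, chr19:41860240-41860269, plus strand: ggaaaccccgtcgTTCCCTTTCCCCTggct
RPL29, chr3:51995881-51995910, minus strand: caccgcagCCCCTTTCTCTTCCggttctag
RPLP1, chr15:69452803-69452832, plus strand: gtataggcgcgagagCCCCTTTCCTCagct
RPL24, chr3:101686704-101686733, minus strand: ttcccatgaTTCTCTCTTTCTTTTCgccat
RPS13, chr11:17077653-17077682, minus strand: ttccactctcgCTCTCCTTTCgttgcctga
RPL31, chr2:101002274-101002303, plus strand: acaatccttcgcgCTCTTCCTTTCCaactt
A run of at least 6 pyrimidines over the start was found in 48 of the 62 entries (77.4%), against 9.25% of the 27305 genes with an entry. Both kinds of gene carried one. The remaining 14 had a shorter run or none at the annotated start. RPS4X, RPS26 and RPS29, which are among the 14, did not depart from the typical member at 1000 nM in either line. RPL3, RPL15 and RPL6 are shown because they departed, RPL3 above the typical member and RPL15 and RPL6 below it. A link between the run and departure was not tested.
RPL3, chr22:39319609-39319638, minus strand: gtaaggccgaccggCCTCTaccggcgggat
RPL15, chr3:23916530-23916559, plus strand: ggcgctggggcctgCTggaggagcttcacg
RPL6, chr12:112411428-112411457, minus strand: tatttgtatcctcagTgaatcagaaccaga
The annotated start may not be the one used in these cells, and 3' libraries do not show it. Several starts are listed for RPL15 (3), RPL6 (2) and RPS19 (2), and a single one of each is shown. On either strand of the promoter window (250 bases before the start and 50 from it), CCGGAAG, the core read by ETS factors, stood in 35.5% of the 62 promoters against 12.2% of all, GGGCGG in 58.1% against 48.3%, ATGGCGGC in 8.06% against 3.67%, and TATAAA in 8.06% against 14.0%. Members without an entry included RPL23, RPL23A, RPL30, RPL37, RPL5, RPL7, RPL8, RPS15A, RPS2 and RPS20.

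Values are FPKM, which the authors appear to have brought to a common level with 92 RNA spike-ins: summed spike-in values lay between 166717 and 187657 FPKM in all 18 libraries, while the summed values of all genes ran from 431965 FPKM (AMO1, 1000 nM, replicate 2) to 1553910 FPKM (AMO1, DMSO, replicate 3). Changes in the deposited values are thus changes against the spike-ins. In bulk libraries, fewer cells and less RNA per cell cannot be told apart. The read depth is unknown, so there is no counting interval, and the error is the spread between replicates. Changes are log2 differences of FPKM plus 1, tested with limma across all genes, with Benjamini-Hochberg adjusted p under 0.05 over all genes of the fit as the threshold. Because FPKM divide by gene length although a 3' library does not, the level of a gene was compared between libraries, not with that of another gene. Summed FPKM, shares of it and the subunits' median levels combine genes and still carry that division.

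The ribosomal protein genes fell together in both lines. In XG1 at 1000 nM, 64 of the 77 were lower than in DMSO and none was higher, where 13.2% of the 11810 genes tested were lower and 3.69% higher. The median member changed by -0.65, to 63.8% of its level in DMSO, against a median of -0.15 over all genes tested. At 100 nM, 56 were lower and none higher in XG1, where 10.0% of all genes were lower and 2.48% higher, with a median of -0.62 against -0.15 over all genes. In AMO1 at 1000 nM, all 77 were lower, where 65.7% of the 10503 genes tested were lower and 2.51% higher, and the median member changed by -1.30, to 40.6% of its level in DMSO, against -0.77 over all genes. At 100 nM, 61 were lower in AMO1 and none higher, where 29.5% of all genes were lower and 2.73% higher, with medians of -0.72 for the members and -0.35 for all genes.

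The 3 treated libraries lay below all 3 DMSO libraries for 73 members in XG1 at 1000 nM (30.1% of all genes tested did so) and for 69 at 100 nM (24.6%). The exceptions at 1000 nM included RPL17, RPL29 and RPS26. In AMO1 this held for 77 of 77 at both doses, against 68.6% of all genes at 1000 nM and 51.2% at 100 nM. The count in AMO1 at 1000 nM stayed between 76 and 77 with any 1 of its 6 libraries left out. The other counts moved more: 64 in XG1 at 1000 nM fell to 40 without DMSO replicate 3, 56 at 100 nM fell to 32 without the same library, and 61 in AMO1 at 100 nM fell to 21 without DMSO replicate 2, 38 without DMSO replicate 3 and 31 without 100 nM replicate 1. With no filter on low values the counts were 30 in XG1 at 1000 nM, 26 in XG1 at 100 nM and 3 in AMO1 at 100 nM. Shares of all genes in these alternative fits are not given here. Whether the drops were particular to the members was not tested. The sum of the erythroid markers in XG1 was 3053 to 3886 FPKM at 100 nM and 3379 to 3740 FPKM at 1000 nM, against 4826 to 5237 FPKM in DMSO. The sum of the plasma cell markers in AMO1 was 9968 to 10714 FPKM at 100 nM, above every DMSO library, and 5256 to 8166 FPKM at 1000 nM, below every one, against 8363 to 9397 FPKM in DMSO. Their part in the result was not tested.

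**Figure D1:**
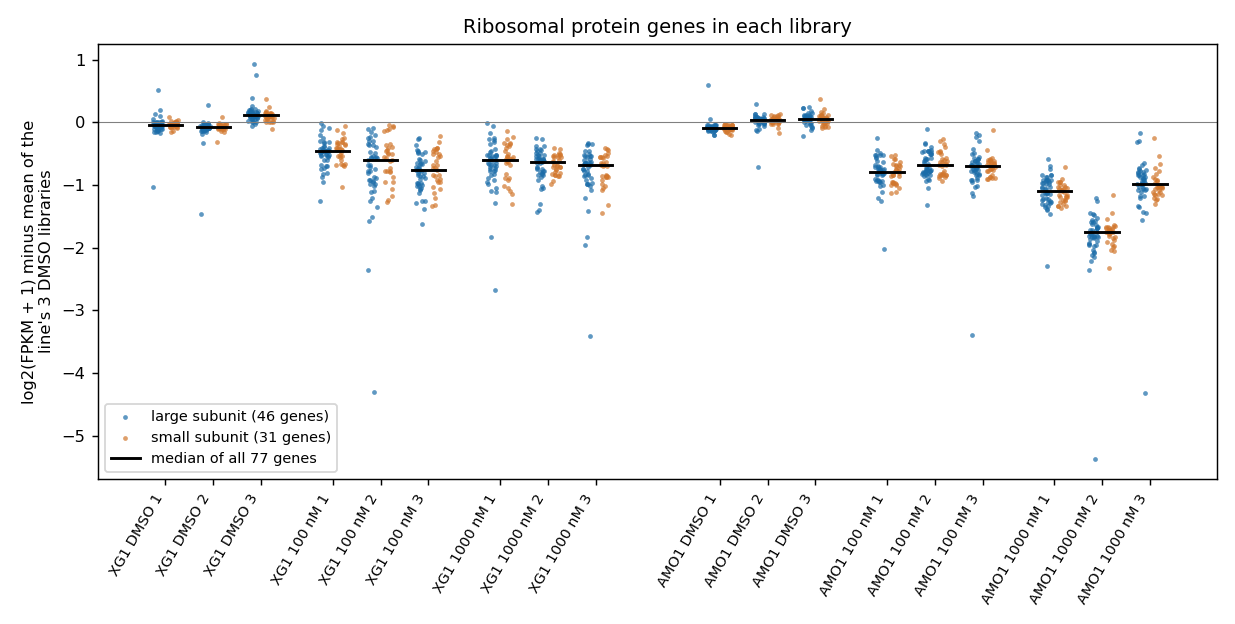
Each point is 1 ribosomal protein gene in 1 library, as log2(FPKM + 1) minus the mean of the line's 3 DMSO libraries (y axis), with libraries along the x axis by line and dose, large subunit genes in blue, small subunit genes in orange and the median of the 77 as a bar. The medians of the XG1 libraries at 1000 nM lay between -0.68 and -0.60, and those of AMO1 at 1000 nM at -1.10, -1.76 and -0.99, with replicate 2 lowest and RPL17 far below the rest.

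The fall was narrow as well as shared. The interquartile range of the 77 log2 changes was 0.29 in XG1 at 1000 nM, against 0.61 over the 1191 genes that averaged at least 100 FPKM in that line, and 0.19 in AMO1 at 1000 nM, against 0.73 over the 869 such genes. The members were not matched to those genes on level, and the part of level in the narrower range was not tested. In size, the members in AMO1 at 1000 nM were close to those abundant genes, whose median was -1.22. At 100 nM the median of the abundant genes was -0.58, a smaller fall than that of the median member. In XG1 the abundant genes had medians of -0.33 at 1000 nM and -0.27 at 100 nM.

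The 3 XG1 libraries at 1000 nM fell alike, their median member standing at -0.60, -0.63 and -0.68 against the mean in DMSO. In AMO1 the medians were -1.10, -1.76 and -0.99, and the summed FPKM of replicate 2 was 431965, where the other replicates had 686266 and 683618.

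Since most genes moved with the members, each change was also taken after each library was divided by its median-ratio size factor (the relative scale). The median change of the members was then -0.46 in XG1 at 1000 nM, with 51 lower and none higher (10.3% of all genes lower and 9.57% higher), and -0.42 at 100 nM, with 41 lower and none higher (7.25% and 7.31%). In AMO1 the medians were -0.32 at 1000 nM, with 48 lower and none higher (24.2% and 24.0%), and -0.28 at 100 nM, with 41 lower and none higher (17.1% and 14.0%). On this scale the median fall was smaller in AMO1 than in XG1 at both doses. That order rests on the size factors, which are not the median changes over all genes given above. Whether the lines keep it against those median changes was not tested. The members' share of summed FPKM was 31.5% to 32.1% in XG1 at 1000 nM against 35.2% to 36.9% in DMSO, and 33.8% to 35.6% in AMO1 at 1000 nM against 32.2% to 32.9% in DMSO. At 1000 nM the treated and DMSO libraries did not overlap in either line, and the share was lower than in DMSO in XG1 and higher in AMO1. At 100 nM the share was 30.5% to 32.4% in XG1, below DMSO, and 32.3% to 34.0% in AMO1, which overlapped DMSO. The share weights each gene by its FPKM, and so by the division by gene length.

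Between the doses, XG1 showed no member past the threshold in limma, where 0.322% of all genes were lower at 1000 nM and 0.0677% higher. At an unadjusted p under 0.05, 2 members were lower and none higher, and the median difference was -0.05. In AMO1, 27 members were lower at 1000 nM than at 100 nM and none higher, where 23.4% of all genes were lower and 0.209% higher, with a median of -0.57 against -0.43 over all genes. The AMO1 count was 0 without 100 nM replicate 1 or replicate 2, 1 without 100 nM replicate 3, and 68 without 1000 nM replicate 3 (shares of all genes in these fits are not given here). It was also 0 on the relative scale, where 4.23% of all genes were lower and 1.74% higher, and 1 member was lower at an unadjusted p under 0.05.

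**Figure D2:**
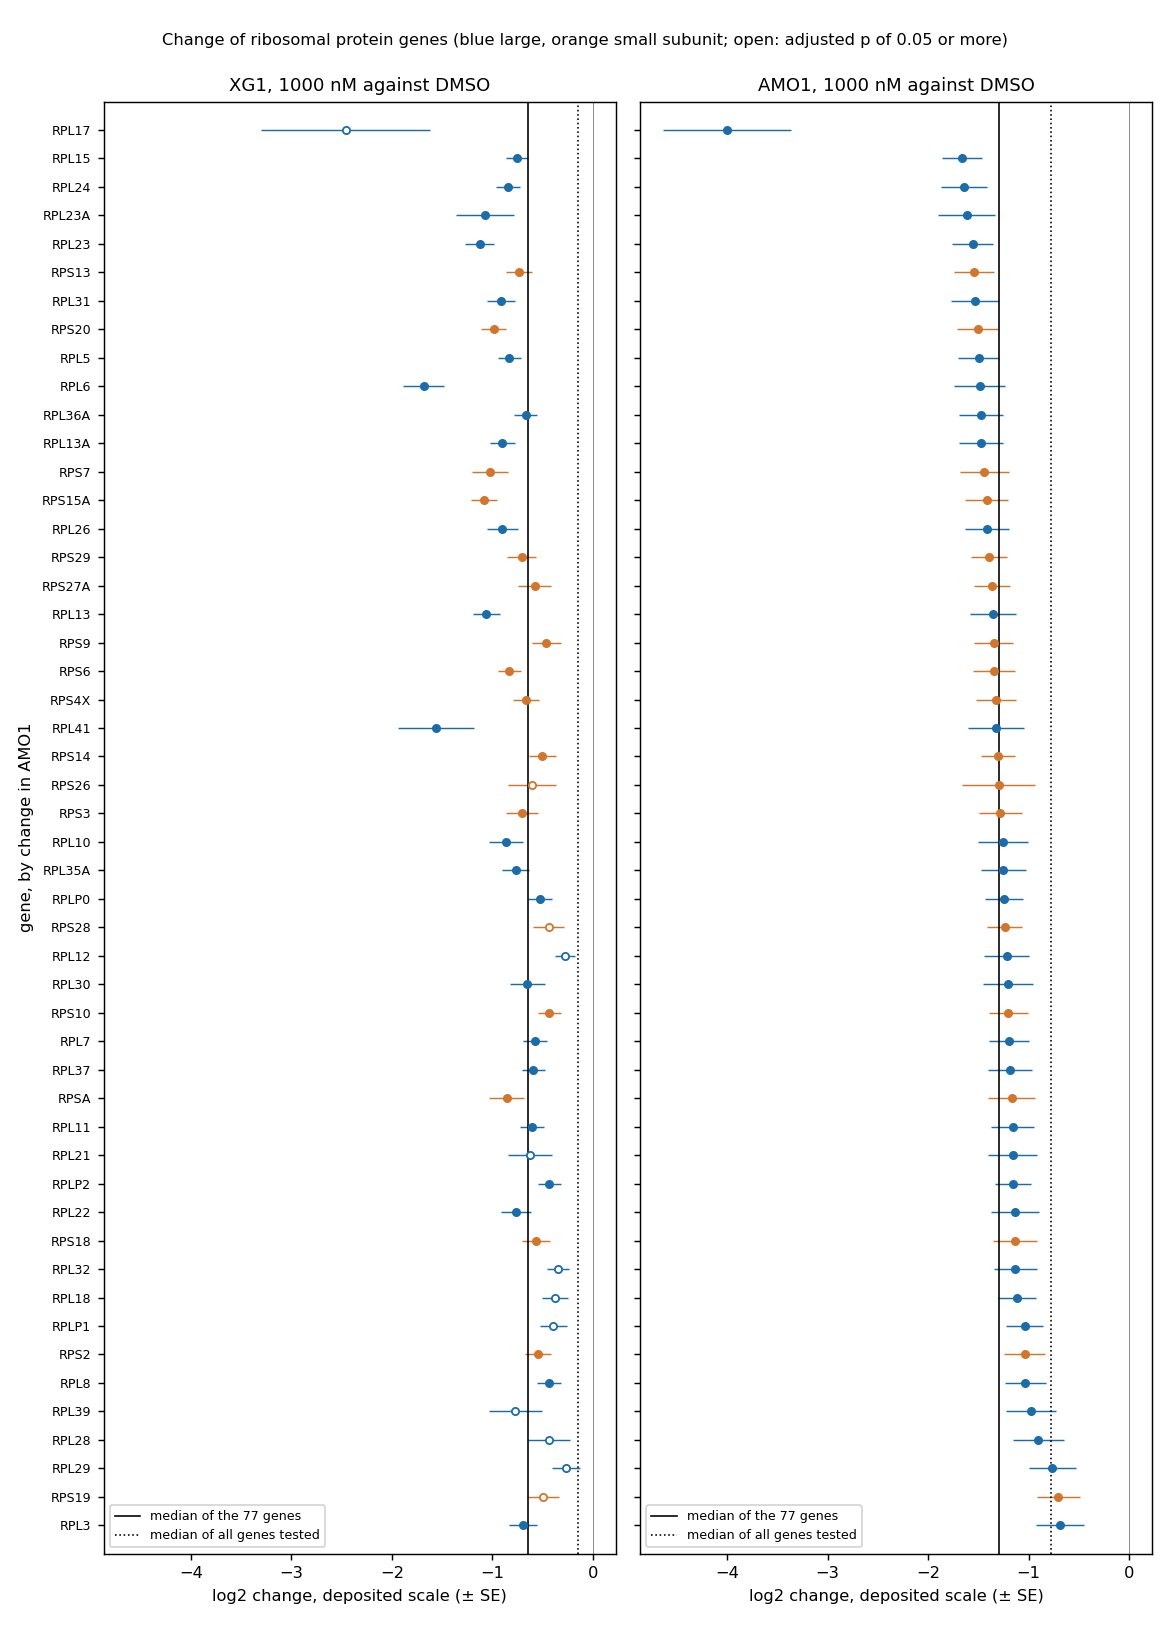
Log2 change of 50 of the 77 genes, those named in the text, at 1000 nM against DMSO with its SE (x axis), XG1 on the left and AMO1 on the right, genes down the y axis in the order of AMO1, large subunit in blue and small subunit in orange, with open symbols where the adjusted p was 0.05 or more. Of those drawn, 38 are filled in XG1 and all 50 in AMO1. The solid lines mark the medians of the 77 at -0.65 and -1.30, and the dotted lines the median of all genes at -0.15 and -0.77.

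The 2 subunits had similar median changes. In XG1 at 1000 nM the 46 large subunit genes had a median change of -0.64, with 36 lower, and the 31 small subunit genes a median of -0.65, with 28 lower. In AMO1 at 1000 nM the medians were -1.24 (46 of 46 lower) and -1.31 (31 of 31 lower). At 100 nM they were -0.68 and -0.56 in XG1, and -0.73 and -0.72 in AMO1. Within each library, the median large subunit change minus the median small subunit change was -0.066, 0.062 and 0.021 in XG1 at 1000 nM, against -0.018, -0.0041 and 0.030 in DMSO. It was 0.044, -0.042 and 0.086 in AMO1 at 1000 nM, against -0.019, 0.013 and -0.0083 in DMSO. Treated and DMSO libraries overlapped in both. In XG1 at 100 nM the 3 libraries stood at -0.037, -0.15 and -0.058, all below the 3 in DMSO. With 3 against 3 an exact permutation test cannot go below p = 0.10. Nor are the groups exchangeable, since the DMSO libraries form the mean that every change was taken against, which holds them near it. The difference between the subunits' median levels, in XG1 at 100 nM against DMSO, changed by -0.050 with a pooled SD of 0.13. The difference between the subunits' median levels gave another picture in XG1 at 1000 nM, 0.16 higher than in DMSO with a pooled SD of 0.048, and in AMO1 at 1000 nM, 0.070 higher with a pooled SD of 0.016. With means over the members in place of medians these became -0.051 in XG1 and -0.029 in AMO1, so the sign turned. Means are open to single extreme genes. RPL17, a large subunit gene, stood at 17.3% of its DMSO mean in XG1 and 8.16% in AMO1 at 1000 nM. Its part in the turn was not tested.

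Single genes were then set against the typical member. For this, the median change of the 77 genes was taken off every gene in each library, so that a positive value means a smaller fall than the typical ribosomal protein gene. In XG1 at 1000 nM, 8 members lay above and 8 below the typical member past the threshold (all genes: 47.0% above and 2.81% below). At 100 nM, 7 lay above and 12 below in XG1 (38.3% and 2.24%). In AMO1 at 1000 nM, 11 lay above and 11 below (54.2% and 10.4%), and at 100 nM, 9 above and 7 below (38.0% and 6.62%). The counts rest on the variance model: with limma's prior variance held the same for all genes they were 8 in XG1 at 1000 nM, 11 in XG1 at 100 nM, 8 in AMO1 at 1000 nM and 1 in AMO1 at 100 nM. Single libraries moved them too. The 16 in XG1 at 1000 nM became 9 without DMSO replicate 1 or 1000 nM replicate 3, 8 without DMSO replicate 2 or 3, and 7 without 1000 nM replicate 1. The 19 in XG1 at 100 nM became 12 without DMSO replicate 1 and 9 without DMSO replicate 2 or 3. In AMO1, the 22 at 1000 nM became 12 without DMSO replicate 1 and 13 without DMSO replicate 2, and the 16 at 100 nM became 4 without DMSO replicate 1, 7 without DMSO replicate 2 or 3 or 100 nM replicate 1, and 9 without 100 nM replicate 3. Shares of all genes in these alternative fits of the departures are not given here. Since the members' own median was taken off, about as many members lie above as below by construction.

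The stalk of the large subunit is the flexible arm that brings elongation factors to the ribosome, and it is built from RPLP1 and RPLP2 on RPLP0. RPLP1 stood at 17569, 17166 and 16292 FPKM in XG1 at 1000 nM, against 21149, 21489 and 24498 FPKM in DMSO. In AMO1 it stood at 11292, 7348 and 11608 FPKM at 1000 nM, against 18910.2, 21421 and 20649.8 FPKM in DMSO. Every treated library was below every DMSO library in both lines. The change was -0.39 ± 0.13 (SE, adjusted p = 0.0674) in XG1, which missed the threshold, and -1.04 ± 0.18 (SE, adjusted p = 0.000232) in AMO1, both smaller than that of the typical member. Its departure was 0.27 ± 0.09 (SE, adjusted p = 0.0282) in XG1 and 0.24 ± 0.07 (SE, adjusted p = 0.0071) in AMO1 at 1000 nM, and 0.37 ± 0.09 (SE, adjusted p = 0.00871) and 0.28 ± 0.07 (SE, adjusted p = 0.00611) at 100 nM. RPLP1 was one of the genes above the typical member in both lines at both doses; RPL18 was the other. RPLP2 lay above it in XG1, by 0.23 ± 0.08 (SE, adjusted p = 0.0311) at 1000 nM and 0.42 ± 0.08 (SE, adjusted p = 0.00275) at 100 nM, but in AMO1 its value at 1000 nM was 0.12 ± 0.07 (SE, adjusted p = 0.14). The anchor RPLP0 did not depart past the threshold, at 0.13 ± 0.08 (SE, adjusted p = 0.198) in XG1 and 0.04 ± 0.08 (SE, adjusted p = 0.698) in AMO1.

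RPL12, at the base of the stalk, where it binds the large ribosomal RNA beside RPLP0, had one of the smallest changes in XG1. Its values were 1745, 1729.8 and 1650.2 FPKM at 1000 nM, against 2113, 2017 and 2085 FPKM in DMSO. The groups did not overlap, but the change of -0.28 ± 0.10 (SE, adjusted p = 0.0839) missed the threshold. In AMO1 its values were 765, 460.4 and 881 FPKM at 1000 nM, against 1472, 1692 and 1576 FPKM in DMSO, a change of -1.22 ± 0.23 (SE, adjusted p = 0.000339). Relative to the typical member it stood 0.38 ± 0.08 (SE, adjusted p = 0.00376) in XG1 and 0.06 ± 0.07 (SE, adjusted p = 0.413) in AMO1.

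RPL5 and RPL11 join the 5S ribosomal RNA in a particle that also binds MDM2, the ligase that degrades p53, when ribosome assembly fails. RPL5 had 1962, 1955 and 1918 FPKM in XG1 at 1000 nM, against 3399.8, 3252 and 3757 FPKM in DMSO, and 1596, 952 and 1453 FPKM in AMO1 at 1000 nM, against 3415, 3818 and 3805 FPKM in DMSO. RPL11 had 2489.9, 2456 and 2318 FPKM in XG1 at 1000 nM, against 3654, 3468 and 3956 FPKM in DMSO, and 1826, 1131 and 2016 FPKM in AMO1 at 1000 nM, against 3319, 3675 and 3814 FPKM in DMSO. Both fell in both lines without overlap. In AMO1, RPL5 fell further than the typical member, with a departure of -0.21 ± 0.07 (SE, adjusted p = 0.0254), whereas RPL11 stood at 0.12 ± 0.06 (SE, adjusted p = 0.0871). The difference between the 2 genes was not tested.

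RPL3, a core protein next to the site where peptide bonds are made, fell least of all members in AMO1 at 1000 nM. Its values in XG1 were 426, 464 and 407 FPKM at 1000 nM, against 652, 669 and 783 FPKM in DMSO. In AMO1 they were 436, 306 and 632 FPKM at 1000 nM, against 667, 732 and 727 FPKM in DMSO. The treated libraries lay below DMSO throughout. On the deposited scale the change was -0.69 ± 0.14 (SE, adjusted p = 0.00729) in XG1 and -0.69 ± 0.24 (SE, adjusted p = 0.0217) in AMO1, where the relative scale turned it to 0.29, short of the threshold. Against the typical member it was -0.03 ± 0.09 (SE, adjusted p = 0.759) in XG1 and 0.59 ± 0.11 (SE, adjusted p = 0.000976) in AMO1 at 1000 nM, with 0.34 ± 0.11 (SE, adjusted p = 0.0304) in AMO1 at 100 nM.

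RPL29, a small basic protein of the large subunit, was among the least reduced members in both lines. It had 661, 496 and 517 FPKM in XG1 at 1000 nM, against 733, 604 and 667 FPKM in DMSO, which overlapped. In AMO1 it had 195, 137 and 267 FPKM at 1000 nM, against 341, 343 and 302 FPKM in DMSO, which did not overlap. Its departure was 0.39 ± 0.12 (SE, adjusted p = 0.0202) in XG1 and 0.52 ± 0.12 (SE, adjusted p = 0.00333) in AMO1. On the relative scale its change in AMO1 was 0.21, with an adjusted p of 0.177.

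RPL28 and RPL39 also fell less than the typical member in AMO1. RPL28 departed by 0.38 ± 0.12 (SE, adjusted p = 0.018) there. RPL39, which lines the tunnel through which the new peptide leaves, stood at -0.11 ± 0.27 (SE, adjusted p = 0.736) in XG1 and 0.31 ± 0.12 (SE, adjusted p = 0.0393) in AMO1. Their relative scale changes in AMO1, 0.071 for RPL28 and 0.0037 for RPL39, were positive and short of the threshold. RPL32 and RPL18 lay above the typical member in both lines at 1000 nM, RPL32 by 0.32 ± 0.07 (SE, adjusted p = 0.0069) in XG1 and 0.15 ± 0.06 (SE, adjusted p = 0.0488) in AMO1, and RPL18 by 0.28 and 0.17. RPL8, a protein close to the peptide bond site, did so in both lines at 100 nM, by 0.29 in XG1 and 0.28 in AMO1.

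At the other end, RPL15, a protein that enters the large subunit early and is mutated in some patients with Diamond-Blackfan anaemia, fell further than the typical member in AMO1. In XG1 it had 619, 598 and 556 FPKM at 1000 nM, against 1002, 947 and 1044 FPKM in DMSO, with a departure of -0.09 ± 0.07 (SE, adjusted p = 0.292). In AMO1 it had 425, 277 and 427 FPKM at 1000 nM, against 1089, 1223 and 1206 FPKM in DMSO, a change of -1.66 ± 0.20 (SE, adjusted p = 1.15e-05) and a departure of -0.38 ± 0.07 (SE, adjusted p = 0.00079). The groups did not overlap in either line. The departure in AMO1 at 100 nM was -0.26 ± 0.07 (SE, adjusted p = 0.0126). RPL24, which forms a bridge to the small subunit, stood at -0.18 ± 0.10 (SE, adjusted p = 0.134) in XG1 and -0.36 ± 0.08 (SE, adjusted p = 0.00175) in AMO1.

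RPL6, a large subunit protein, showed the strongest departure in XG1 among the members past the threshold. It had 223, 301 and 224 FPKM at 1000 nM, against 720.3, 771 and 897 FPKM in DMSO, a change of -1.68 ± 0.20 (SE, adjusted p = 0.000481). At 100 nM its values in XG1 were 448, 277 and 256 FPKM. All 6 treated libraries lay below all 3 in DMSO. Relative to the typical member RPL6 stood -1.02 ± 0.16 (SE, adjusted p = 0.00101) at 1000 nM and -0.73 ± 0.16 (SE, adjusted p = 0.00739) at 100 nM in XG1. In AMO1 it had 225, 125 and 257 FPKM at 1000 nM, against 504, 565 and 565 FPKM in DMSO, a departure of -0.21 ± 0.09 (SE, adjusted p = 0.074), and at 100 nM it departed by -0.28 ± 0.09 (SE, adjusted p = 0.0303).

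RPL23, at the face between the subunits, fell further than the typical member in both lines and at both doses. It had 4681, 4911 and 4380.1 FPKM in XG1 at 1000 nM, against 9733, 9230.3 and 11676 FPKM in DMSO, and 3896, 2217 and 3649.8 FPKM in AMO1 at 1000 nM, against 8918, 9409 and 9585 FPKM in DMSO. None of these groups overlapped. The departures at 1000 nM were -0.47 ± 0.12 (SE, adjusted p = 0.00974) in XG1 and -0.27 ± 0.07 (SE, adjusted p = 0.00756) in AMO1. RPL31, near the exit of the peptide tunnel, departed by -0.25 in XG1 and -0.25 in AMO1 at 1000 nM, and by -0.27 in XG1 and -0.27 in AMO1 at 100 nM, all past the threshold, the first at an adjusted p of 0.0486. RPL13 fell to 135, 133 and 132 FPKM in XG1 at 1000 nM, against 279, 259.8 and 301 FPKM in DMSO, a departure of -0.40 ± 0.09 (SE, adjusted p = 0.00418); in AMO1 its departure was -0.07 ± 0.09 (SE, adjusted p = 0.524). RPL13A, a member with further roles outside the ribosome, stood at -0.24 ± 0.09 (SE, adjusted p = 0.0504) in XG1 and -0.19 ± 0.07 (SE, adjusted p = 0.0424) in AMO1. RPL26 departed in AMO1 at 100 nM, by -0.21 ± 0.07 (SE, adjusted p = 0.0299).

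Among the small subunit genes, RPS19 departed most in AMO1. It is the gene most often mutated in Diamond-Blackfan anaemia, and its protein is needed to mature the small ribosomal RNA. It had 2608, 2871 and 2604 FPKM in XG1 at 1000 nM, against 3739, 3749 and 3918 FPKM in DMSO, and 4842, 3579 and 6674 FPKM in AMO1 at 1000 nM, against 7402, 8372 and 8114 FPKM in DMSO. The groups did not overlap. Its change in XG1 was -0.50 ± 0.16 (SE, adjusted p = 0.0552), short of the threshold, and in AMO1 it was -0.71 ± 0.21 (SE, adjusted p = 0.00951) on the deposited scale, 0.28 on the relative scale (adjusted p = 0.0833), and 0.58 ± 0.10 (SE, adjusted p = 0.000527) against the typical member. In XG1 the departure was 0.16 ± 0.13 (SE, adjusted p = 0.294), and at 100 nM it was 0.33 ± 0.13 (SE, adjusted p = 0.0586) in XG1 and 0.40 ± 0.10 (SE, adjusted p = 0.00838) in AMO1.

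RPS20, in the head of the small subunit, fell further than the typical member in both lines at both doses. It had 2636, 2855 and 2741 FPKM in XG1 at 1000 nM, against 5082, 5262 and 5986 FPKM in DMSO, and 1854, 1181 and 2012 FPKM in AMO1 at 1000 nM, against 4410.4, 4836 and 4729 FPKM in DMSO. Its departures at 1000 nM were -0.33 ± 0.08 (SE, adjusted p = 0.00957) in XG1 and -0.22 ± 0.06 (SE, adjusted p = 0.00687) in AMO1. RPS15A and RPS7 departed downward in XG1 at 1000 nM, by -0.42 ± 0.11 (SE, adjusted p = 0.011) and -0.36 ± 0.14 (SE, adjusted p = 0.0488). RPS13 did so in AMO1, by -0.26 ± 0.06 (SE, adjusted p = 0.00343).

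For the other small subunit genes chosen for their roles, no departure passed the threshold at 1000 nM. RPS6, the substrate of the S6 kinases, had 1930.4, 1953 and 1883 FPKM in XG1 at 1000 nM, against 3339.8, 3233 and 3716 FPKM in DMSO, and 2044, 1293 and 2242 FPKM in AMO1 at 1000 nM, against 4383, 4772 and 4654 FPKM in DMSO. The groups were far apart, with changes of -0.83 ± 0.11 (SE, adjusted p = 0.000866) and -1.35 ± 0.20 (SE, adjusted p = 7.21e-05), and departures of -0.17 and -0.06 short of the threshold. RPS14, a gene in the region lost in the 5q deletion of myelodysplasia, changed by -0.50 ± 0.13 (SE, adjusted p = 0.0243) in XG1 and -1.31 ± 0.17 (SE, adjusted p = 1.88e-05) in AMO1 at 1000 nM. At 100 nM it was among the least reduced members in XG1, with a departure of 0.38 ± 0.10 (SE, adjusted p = 0.0115). RPS28 stood with it there, at 0.45 ± 0.12 (SE, adjusted p = 0.0163). RPS3, part of the channel by which the messenger RNA enters, changed by -0.70 and -1.28. RPS4X changed by -0.66 and -1.33, RPSA by -0.86 and -1.17, and RPS27A, made as a fusion with ubiquitin, by -0.58 and -1.37 in XG1 and AMO1 at 1000 nM. All 8 of these last values passed the threshold on the deposited scale and none on the scale of the typical member.

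**Figure D3:**
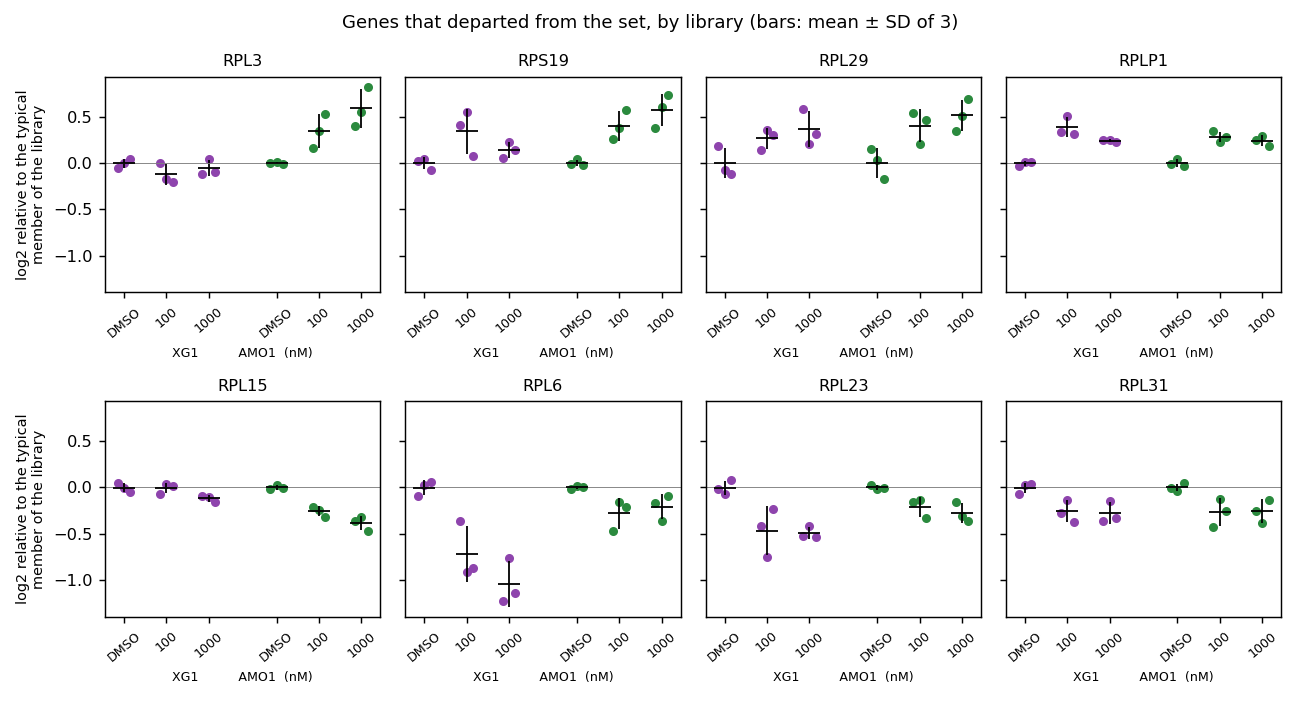
Each panel gives 1 gene as log2 relative to the typical member of its library (y axis), with the 3 libraries of each dose as points (XG1 purple, AMO1 green) and their mean and SD in black. RPL3, RPS19 and RPL29 lay above 0 in all 3 AMO1 libraries at 1000 nM, RPLP1 lay above and RPL23 and RPL31 below 0 in all treated libraries of both lines, and RPL6 was lowest in XG1.

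The lines shared several of the departing members. At 1000 nM, RPL18, RPL29, RPL32 and RPLP1 lay above the typical member in both lines (4 of the 8 in XG1 and 4 of the 11 in AMO1), and RPL23, RPL31 and RPS20 below it in both (3 of 8 and 3 of 11). At 100 nM, RPL18, RPL8 and RPLP1 were above in both (3 of 7 in XG1 and 3 of 9 in AMO1), and RPL23, RPL31, RPL6 and RPS20 below in both (4 of 12 in XG1 and 4 of 7 in AMO1). No member departed past the threshold in opposite directions at either dose. Across the 77 genes, which are not independent replicates, the departures of the lines at 1000 nM had a Pearson r of 0.74, and 0.52 without RPL17. The lines share no library. The matching overlaps and r over all genes are not given here. Whether the members agree between the lines more than other genes do was not tested.

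**Figure D4:**
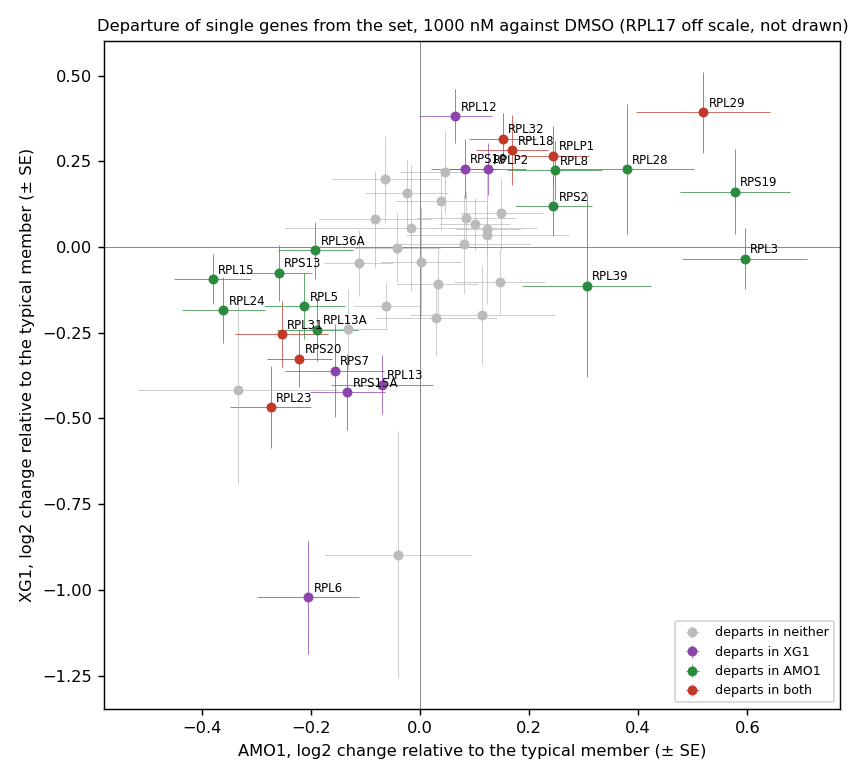
Departure of the genes named in the text from the typical member at 1000 nM against DMSO, in XG1 (y axis) and AMO1 (x axis), log2 with SE bars; colours show in which line the departure passed the threshold, and RPL17 lies off the scale. RPL29, RPL32, RPL18 and RPLP1 stand in the upper right, RPL23, RPL31 and RPS20 in the lower left, RPL3 and RPS19 far right and RPL6 at the bottom.

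Whether the lines responded differently was tested directly, as the response of XG1 less that of AMO1. At 1000 nM, 34 members had a positive difference past the threshold, meaning a smaller fall in XG1, and none a negative one (32.8% of the 12792 genes tested were positive and 1.50% negative). The median was 0.62 for the members and 0.55 for all genes. The count was 21 without XG1 DMSO replicate 2 and 20 without AMO1 DMSO replicate 2 (shares of all genes in these fits are not given here). On the relative scale no member was positive and 6 were negative (8.47% and 8.22% of all genes), with a median of -0.22 against -0.06 over all genes. Relative to the typical member, RPL12 and RPL15 fell less in XG1 than in AMO1, with differences of 0.40 ± 0.10 (SE, adjusted p = 0.013) and 0.36 ± 0.11 (SE, adjusted p = 0.0283), and RPL3 and RPL6 fell more, with differences of -0.55 ± 0.14 (SE, adjusted p = 0.0148) and -0.74 ± 0.18 (SE, adjusted p = 0.0105) (10.9% of all genes positive and 4.72% negative). At 100 nM no member passed the threshold in limma on the deposited scale (5.37% of all genes positive and 0.860% negative), and 1 was positive at an unadjusted p under 0.05. On the relative scale 3 were negative and none positive there (3.66% and 5.94%), namely RPL3, RPL13 and RPL22. RPS9 had a deposited scale difference of 0.41 ± 0.23 (SE, adjusted p = 0.347) at that dose.

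In DMSO on the deposited scale, the lines differed gene by gene around a median near 0. There, 16 members were higher and 22 lower in XG1 than in AMO1, where 45.0% of all genes were higher and 19.8% lower. The median member differed by 0.04, against 0.42 over all genes, and single members ran from -1.56 to 1.53. On the relative scale 12 members were higher and 38 lower in XG1 (38.3% and 28.0% of all genes), with a median of -0.28 against 0.17 over all genes. Libraries did not overlap for 27 members that were higher and 29 that were lower in XG1 (50.6% and 23.5% of all genes). Relative to the typical member, 25 lay above and 27 below (46.0% and 21.0%), 52 in all, and with 1 library left out there were between 47 and 51 in all (shares of all genes then are not given here).

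RPL30, a large subunit protein, had 7887, 7552 and 8832 FPKM in XG1, against 2584, 2573 and 3297 FPKM in AMO1, a difference of 1.53 ± 0.23 (SE, adjusted p = 1.62e-05). RPS29 had 112510.0, 108178 and 113938 FPKM in XG1, against 43998, 45404 and 49655 FPKM in AMO1, a difference of 1.27 ± 0.16 (SE, adjusted p = 2.24e-06). Both were far above AMO1 in every library. RPL29 differed by 1.02 ± 0.19 (SE, adjusted p = 0.000153), RPL35A by 0.93 ± 0.19 (SE, adjusted p = 0.000336) and RPS18 by 0.91 ± 0.19 (SE, adjusted p = 0.000469). In the other direction, RPS7 had 663, 719.8 and 821 FPKM in XG1, against 2025, 2117 and 2362 FPKM in AMO1, a difference of -1.56 ± 0.23 (SE, adjusted p = 1.32e-05). RPS4X had 1253, 1257 and 1469 FPKM in XG1, against 3183, 3534 and 3083 FPKM in AMO1, a difference of -1.30 ± 0.16 (SE, adjusted p = 2.01e-06). RPS14 differed by -1.17 ± 0.14 (SE, adjusted p = 1.99e-06), RPS27A by -1.12 ± 0.18 (SE, adjusted p = 3.01e-05) and RPS19 by -1.06 ± 0.20 (SE, adjusted p = 0.000162). All 5 were lower in XG1 than in AMO1 in every library.

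The stalk proteins parted here: RPLP2 was lower in XG1 by -0.89 ± 0.14 (SE, adjusted p = 3.44e-05), RPLP0 differed by -0.44 ± 0.15 (SE, adjusted p = 0.0141), and RPLP1 by 0.14 ± 0.16 (SE, adjusted p = 0.452). RPLP1 on the relative scale turned to -0.18, past the threshold, and RPL11 from 0.04 to -0.28. The members made up 35.2% to 36.9% of summed FPKM in XG1 and 32.2% to 32.9% in AMO1 in DMSO. With RPS29 left out the shares were 29.3% to 30.8% in XG1 and 30.1% to 30.9% in AMO1, and they overlapped. By chromosome, the members past the threshold did not all go one way: 3 of 4 on chromosome 6 and 4 of 7 on chromosome 3 were higher in XG1 and none lower, while on chromosome 2 none was higher and 3 of 4 were lower, on X none was higher and 2 of 4 were lower, and on chromosome 19 there were 2 higher and 6 lower of 12 (all genes: 45.0% higher and 19.8% lower). Other chromosomes that carry members are left out of this list. Of those, chromosomes 5, 11 and 17 had members past the threshold in both directions. The rest had them in a single direction or not at all. The shares are over all genes, not over those of the same chromosome. The copy number of either line is not in the material used here, and its part in these differences was not tested. Nor was that of the erythroid and plasma cell genes that separate the 2 sets of libraries.

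**Figure D5:**
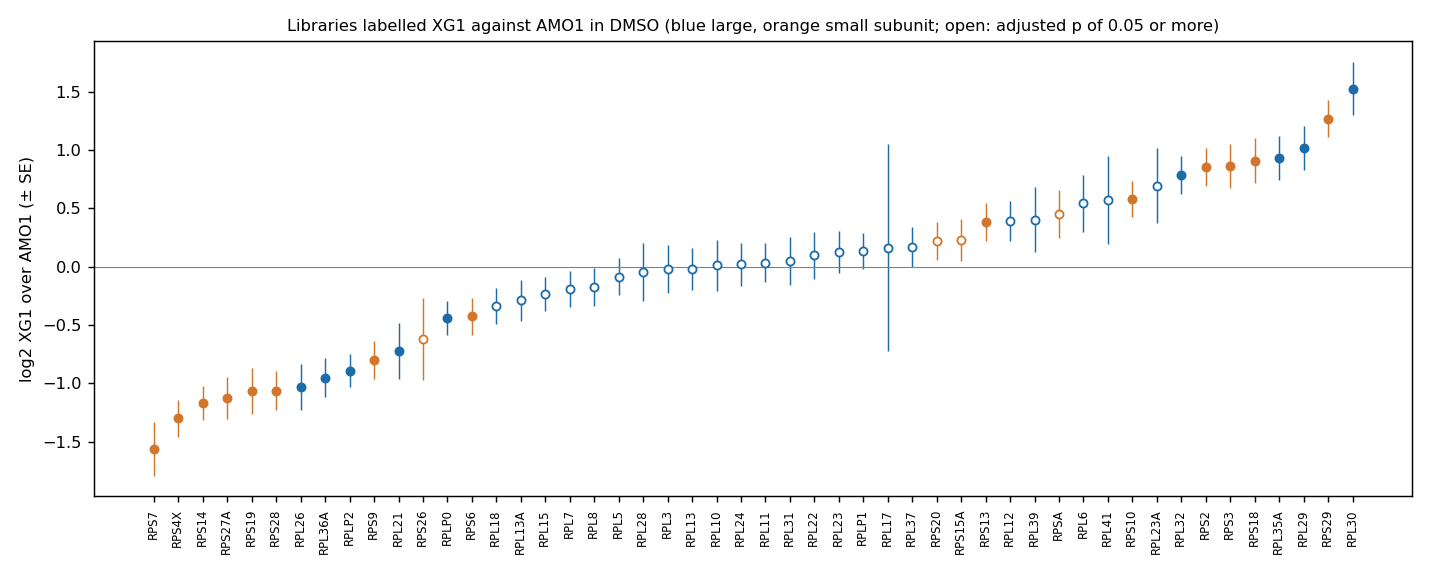
Log2 difference of the 50 genes named in the text between XG1 and AMO1 in DMSO, XG1 over AMO1, with SE (y axis) and genes ordered along the x axis, large subunit in blue, small subunit in orange, open symbols where the adjusted p was 0.05 or more. RPL30 and RPS29 stand highest at 1.53 and 1.27, RPS7 and RPS4X lowest at -1.56 and -1.30.

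Some members overlap another gene or have close copies, so the counting could split their reads. RPL17 overlaps the readthrough gene RPL17-C18orf32. RPL17 had 29.5, 77.8 and 17.4 FPKM in XG1 at 1000 nM, against 278, 69.9 and 371 FPKM in DMSO, and 34.3, 3.17 and 7.70 FPKM in AMO1 at 1000 nM, against 261, 105 and 188 FPKM in DMSO. The groups overlapped in XG1 and not in AMO1. It was the noisiest member, with an SD between replicates of 1.40 in XG1 and 1.16 in AMO1, where the median member had 0.16 and 0.27. Its AMO1 change of -4.00 ± 0.64 (SE, adjusted p = 0.000103), the lowest of all members, is therefore uncertain, and summed with the readthrough gene the values in AMO1 were 90.9, 8.74 and 23.7 FPKM at 1000 nM, against 261, 159 and 236 FPKM in DMSO. RPL36A likewise overlaps RPL36A-HNRNPH2, and RPS10 overlaps RPS10-NUDT3. Every member has named pseudogenes in the annotation, between 4 and 137 each, with the most for RPL21. RPL41 had 187, 170.2 and 117 FPKM in XG1 at 1000 nM, against 224, 555 and 771 FPKM in DMSO, with a change of -1.56 ± 0.38 (SE, adjusted p = 0.0169); its DMSO replicate 1 lay far below the other 2. RPL23A was low in 1 library, XG1 at 100 nM replicate 2, with values of 1662, 628 and 1235 FPKM at that dose, and its departure there was -0.97 ± 0.27 (SE, adjusted p = 0.0193). In RPS26 the treated and DMSO libraries of XG1 overlapped, at 48.3, 31.6 and 35.4 FPKM at 1000 nM, against 55.6, 46.4 and 75.6 FPKM in DMSO, and its change was -0.60 ± 0.24 (SE, adjusted p = 0.106). RPL10, which joins the large subunit late, changed by -0.87 ± 0.17 (SE, adjusted p = 0.00592) in XG1 and -1.25 ± 0.25 (SE, adjusted p = 0.000572) in AMO1.

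The falls were also read by features of the genes. Members with a pyrimidine run of at least 6 at the start had a median change of -0.61 in XG1 and -1.25 in AMO1 at 1000 nM (48 genes), and those with a shorter run or none -0.66 and -1.32 (14 genes). Members that carry a small nucleolar RNA gene in an intron had medians of -0.69 in XG1 and -1.25 in AMO1 (29 genes), and those without had -0.61 and -1.31 (48 genes). These are descriptions of the members, with no test.

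Genes around the set moved with it in part. Of 25 other genes whose messenger RNAs are known for the TOP motif or for translation, 19 were lower in XG1 at 1000 nM (13.2% of all genes), with a median of -0.64, and 25 in AMO1 (65.7%), with a median of -1.25. At 100 nM 18 were lower in each line, where 10.0% of all genes were lower in XG1 and 29.5% in AMO1. SNHG1 and GAS5, TOP transcripts that host small nucleolar RNAs and encode no protein, changed by -1.59 ± 0.15 (SE, adjusted p = 0.000106) and -1.31 ± 0.12 (SE, adjusted p = 0.00012) in XG1 at 1000 nM. NPM1, the nucleolar chaperone of ribosome assembly, fell to 189.6, 118 and 183 FPKM in AMO1 at 1000 nM, against 802, 919 and 806 FPKM in DMSO, a change of -2.39 ± 0.21 (SE, adjusted p = 7.58e-07), where the median ribosomal protein gene had -1.30. HNRNPA1 changed by -1.27 ± 0.14 (SE, adjusted p = 0.000247) in XG1 and -2.64 ± 0.24 (SE, adjusted p = 7.68e-07) in AMO1. Of 8 measured genes for fused or paralogous ribosomal proteins, 3 were lower in XG1 (13.2% of all genes) and 8 in AMO1 (65.7%) at 1000 nM.

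RPL22L1, the paralogue of RPL22, fell furthest of these. It had 38.3, 47.7 and 39.0 FPKM in XG1 at 1000 nM, against 124, 114 and 141 FPKM in DMSO, and 45.3, 26.8 and 44.0 FPKM in AMO1 at 1000 nM, against 314, 352 and 315 FPKM in DMSO. The groups were far apart, with changes of -1.58 ± 0.18 (SE, adjusted p = 0.000332) and -3.08 ± 0.22 (SE, adjusted p = 9.44e-08). RPL22 itself changed by -0.76 ± 0.15 (SE, adjusted p = 0.00606) in XG1 and -1.14 ± 0.24 (SE, adjusted p = 0.000849) in AMO1. RPL39L, the paralogue of RPL39, changed by -0.41 ± 0.15 (SE, adjusted p = 0.0835) in XG1 and -1.85 ± 0.21 (SE, adjusted p = 5.75e-06) in AMO1.

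Among 7 chaperones that escort single ribosomal proteins, 2 were lower in XG1 (13.2% of all genes) and 6 in AMO1 (65.7%) at 1000 nM. GRWD1, which escorts RPL3, changed by -0.86 ± 0.23 (SE, adjusted p = 0.0244) in XG1 and -1.94 ± 0.22 (SE, adjusted p = 5.13e-06) in AMO1, and TSR2, which escorts RPS26, by -0.37 ± 0.18 (SE, adjusted p = 0.183) and -1.40 ± 0.21 (SE, adjusted p = 7.46e-05). Of 8 genes of mTOR signalling or the LARP family, 1 was lower and 1 higher in XG1 (13.2% and 3.69% of all genes) and 7 were lower in AMO1 (65.7%) at 1000 nM. LARP1 changed by -0.63 ± 0.15 (SE, adjusted p = 0.0176) and -1.26 ± 0.23 (SE, adjusted p = 0.000277), EIF4EBP1, a repressor of cap-dependent translation, by -0.47 ± 0.17 (SE, adjusted p = 0.0759) and -3.70 ± 0.24 (SE, adjusted p = 4.2e-08), and the higher gene in XG1 was the S6 kinase gene RPS6KB2, at 0.59 ± 0.15 (SE, adjusted p = 0.0233). The 77 genes for mitochondrial ribosomal proteins, which sit in another ribosome, had 31 lower in XG1 with a median of -0.40 at 1000 nM, where 13.2% of all genes were lower with a median of -0.15. In AMO1 76 were lower with a median of -1.33, where 65.7% of all genes were lower with a median of -0.77.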

How the data were processed

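QuantSeq 3' libraries of XG1 and AMO1 (6 groups of 3) were analysed from 1 deposited table per library. The values are FPKM as the authors deposited them; HISAT2, the hg19 build and Cuffnorm are named per the submitters' processing notes, with versions not given in the sources used here. That the values were rescaled to the spike-ins was inferred from the values. Read counts were not used here, so depth is unknown. Members and lists were chosen with earlier results of these data known.

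Genes reaching 1 FPKM in no fewer than 3 of a fit's libraries were kept, and log2(FPKM + 1) was fitted with limma 3.58.1 (R 4.3.3) with a mean-variance trend and Benjamini-Hochberg adjusted p over all genes tested. On this scale a fold change understates the change of low genes. Each line's 9 libraries were fitted together, and all 18 for differences between lines. Relative values used median-ratio size factors, and departures the median deviation of the members in each library. The script was tested on simulated data. Whether replicate numbers pair the samples is not stated in the labels, and the fits did not pair them. Same-numbered libraries had correlations of -0.044 to 0.16 in XG1 and -0.18 to 0.12 in AMO1. Unlike-numbered libraries had -0.14 to 0.093 in XG1 and -0.17 to 0.17 in AMO1. These ranges overlap and do not settle the question.

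Genes were named by rule: in each comparison the 4 lowest and 4 highest changes, up to 5 departures in each direction, up to 3 response differences in each direction, genes fixed for their roles, and up to 3 per other list with the smallest adjusted p. Where the text names others, they were chosen after their values were seen. Alternatives were another pseudocount, filter, scale or variance model, the replicate block, and leaving out each library. Python 3.11.15, pandas 2.3.3, numpy 2.4.6 and matplotlib 3.10.9 were used for tables and figures. Some members count in the set but are not reported here by name, and figures that name genes draw only those named in the text.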

Additional observations from a re-analysis of the deposited data

Results flagged for a closer look

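The difference between the lines in the response to 1000 nM was tested directly (XG1 minus AMO1, limma across all genes, Benjamini-Hochberg adjusted). On the deposited scale 34 ribosomal protein genes passed, all with a smaller fall in XG1 (32.8% of all genes), among them RPL15 with a difference of 0.91 and RPL12 with 0.94. On the relative scale 6 passed, all in the other direction, a share near that of all genes (8.22%). Relative to the typical member 4 passed (10.9% of all genes positive and 4.72% negative): RPL12 at 0.40 and RPL15 at 0.36 were reduced less in XG1 than in AMO1, and RPL3 at -0.55 and RPL6 at -0.74 more. At 100 nM, 3 passed on the relative scale, all negative, again near the share of all genes (3.66%).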

How the results depend on the processing

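Under alternatives other than leaving out a library, 113 of the counts and subunit differences kept their size and 26 moved, for causes that were not tested. Of the values of named genes under all alternatives, 3282 kept direction and side of the threshold, 236 lost the threshold, 92 gained it and 7 turned. On the relative scale, counts of members past the threshold were 48 in AMO1 at 1000 nM, 0 between the doses in AMO1, 6 for the difference in response to 1000 nM and 3 for that to 100 nM. On that scale RPL3 (0.29), RPL39 (0.0037), RPS19 (0.28), RPL28 (0.071) and RPL29 (0.21) turned positive in AMO1 at 1000 nM, and RPLP1 (-0.18) and RPL11 (-0.28) turned negative in XG1 against AMO1. For the counts that follow, shares of all genes under the same alternative are not given here. With no filter the counts were 30 in XG1 at 1000 nM, 26 in XG1 at 100 nM, 3 in AMO1 at 100 nM, 0 between the doses in AMO1 and 9 for the difference in response to 1000 nM, with 2 departing members there. With library weights, 25 members departed in AMO1 at 100 nM and 17 in the difference in response to 1000 nM, and 2 passed in that to 100 nM. With only the 2 groups compared, 4 passed between the doses in AMO1, and 26 departed in XG1 at 1000 nM and 12 at 100 nM. Without the variance trend, departures numbered 8 in XG1 and 8 in AMO1 at 1000 nM, 11 in XG1 and 1 in AMO1 at 100 nM, and 2 in the difference in response to 1000 nM. As means over members, the noisy RPL17 among them, large minus small subunit was -0.051 in XG1 and -0.029 in AMO1 at 1000 nM, -0.022 in AMO1 at 100 nM and 0.22 in XG1 against AMO1.

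With the replicate number as a block, 11 members passed between the doses in AMO1, 62 in XG1 and 77 in AMO1 at 1000 nM, and 47 in XG1 and 59 in AMO1 at 100 nM. Whether the numbers pair the samples is not known, and shares of all genes in these fits are not given here.

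Leaving out 1 library gave 40 to 62 members past the threshold in XG1 and 76 to 77 in AMO1 at 1000 nM, 32 to 56 in XG1 and 21 to 48 in AMO1 at 100 nM, 0 to 68 between the doses in AMO1 and 0 in XG1, 31 to 36 in XG1 against AMO1, and 20 to 48 for the difference in response to 1000 nM and 0 for that to 100 nM. Departures then numbered 7 to 12 in XG1 and 12 to 20 in AMO1 at 1000 nM, 9 to 21 in XG1 and 4 to 14 in AMO1 at 100 nM, 47 to 51 in XG1 against AMO1 and 3 to 5 for the difference in response to 1000 nM. Shares of all genes in these fits are not given here, so the counts cannot be told from a change in all genes. Large minus small subunit ran from 0.13 to 0.19 in XG1 and 0.063 to 0.082 in AMO1 at 1000 nM, from -0.13 to 0.048 in XG1 and -0.0030 to 0.066 in AMO1 at 100 nM, and from 0.039 to 0.069 in XG1 against AMO1.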
